A study of Mus musculus with 2 samples.

Results

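The steroid receptors and coregulators described here were 9 genes, taken by name. They comprised 3 receptors (Pgr, Esr1 and Nr3c1), 4 coactivators (Ncoa1, Ncoa2, Ncoa3 and Ncoa6), 1 corepressor (Ncor1) and 1 receptor co-chaperone (Fkbp4). A peak was counted for a gene when its summit lay within the gene's RefSeq span, introns included. By that rule 7 of the 9 genes held a peak, against 30.7% of all 21900 protein-coding genes. They held 37 of the 21192 peaks in the list, and Nr3c1 and Fkbp4 held 0.

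The tissue was the entire uterus, taken from wild-type mice at gestational day 4; their age and number were not given in the sources used here. In acRIP-seq, RNA carrying N4-acetylcytidine (ac4C), a cytidine with an added acetyl group, is recovered with an antibody and sequenced, and regions with more fragments than background are called as peaks. The study had 1 library of ac4C immunoprecipitation and 1 of input RNA as the control, both from polyA RNA, and neither had a replicate. Every value below therefore describes this pair of libraries, and no difference could be set against a spread between replicates. The tissue was bulk, so fewer cells of a type and less RNA per cell cannot be told apart.

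Steroid receptors are transcription factors that bind a hormone and then act at target genes. Pgr encodes the progesterone receptor, Esr1 the estrogen receptor alpha and Nr3c1 the glucocorticoid receptor. Bound receptors recruit coactivators, among them the p160 family (Ncoa1, Ncoa2 and Ncoa3), which bring histone acetyltransferases, while Ncor1 is a scaffold for histone deacetylase complexes. Fkbp4 is an immunophilin that sits with Hsp90 on receptors awaiting hormone. In the uterus, estrogen drives epithelial growth and progesterone prepares the stroma and epithelium for implantation.

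The transcript starts of Pgr and Esr1 that lie closest before their deepest peaks are shown because distances to those peaks were counted from them. Both windows are RefSeq sequences of GRCm38.p6 on the plus strand, each from 250 bases before a start to 50 bases after it. The 50 transcribed bases are in capitals. Windows were found for 6 of the 9 genes.
Pgr, chr9:8899583-8899882: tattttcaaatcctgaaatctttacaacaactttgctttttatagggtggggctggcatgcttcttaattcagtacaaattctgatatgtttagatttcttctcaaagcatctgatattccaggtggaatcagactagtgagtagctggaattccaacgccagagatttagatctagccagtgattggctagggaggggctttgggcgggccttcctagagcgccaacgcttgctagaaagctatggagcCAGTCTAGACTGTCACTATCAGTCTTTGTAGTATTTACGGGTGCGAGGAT
Esr1, chr10:4709908-4710207: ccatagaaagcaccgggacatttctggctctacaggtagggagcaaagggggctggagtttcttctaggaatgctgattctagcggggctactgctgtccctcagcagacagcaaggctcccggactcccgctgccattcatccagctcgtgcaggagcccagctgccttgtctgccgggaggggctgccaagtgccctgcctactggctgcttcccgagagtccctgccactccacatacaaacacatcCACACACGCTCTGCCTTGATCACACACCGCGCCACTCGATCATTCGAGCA

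No peak touched either window, nor any of the other 6 windows of the genes found in that table. The peak nearest to a start was that of Pgr, whose edge lay 243 bp downstream of the start shown. The Esr1 peak began 2021 bp downstream of the start shown. Of the 50 transcribed bases, 9 were cytidines in Pgr and 21 in Esr1, which is 18% and 42%, against a median of 26% over all 32851 windows. The sequence under the peaks themselves was not used here.

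Pgr held the highest fold enrichment and the widest peak of the 9 genes. Fold enrichment is the ratio of signal to background at a summit as the authors' peak caller gave it. Each interval given with it is the exact 95% Poisson interval of the fragments at the summit, which covers counting error only. It takes the background as exact, so the counting error of the background is left out. The first Pgr peak, on chromosome 9 from 8900076 to 8902120, was 2045 bp wide and stood at 10.02-fold (95% interval 8.34 to 11.9) on 123 fragments over a background of 11.4. The second, from 8903425 to 8903900, stood at 6.72-fold (4.87 to 9.06) on 41 fragments. The third, from 8946521 to 8946870, stood at 2.51-fold (1.94 to 3.21) on 62 fragments over a background of 24.1. The intervals of the first and the last of these peaks did not overlap. The values of the first and the third peak thus differed by more than the counting error of the summit fragments alone. Their backgrounds also differed, and the gap is no test of a difference between parts of the gene. The first summit lay 1.54 kb after the start shown above and the second 3.75 kb after it, both within the first 7% of the gene, while the third lay at 68.6% of the span. The first peak was wider than 99.1% of all peaks and had more fragments than 99.3% of them.

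Esr1 held 7 peaks spread over 367 kb of its 394 kb span on chromosome 10. The deepest, from 4712179 to 4712948, rested on 127 fragments, was 770 bp wide and stood at 5.70-fold (95% interval 4.76 to 6.78), with its summit 2.36 kb after the start shown. The highest fold enrichment was that of the next peak, from 4746469 to 4746766, at 8.97-fold (6.86 to 11.5) on 59 fragments. The peak nearest the far end of the gene, from 5001079 to 5001669, stood at 3.77-fold (3.01 to 4.67) on 82 fragments, 4.40 kb before that end. The other 4 peaks ran from 2.46-fold to 4.73-fold on 12 to 39 fragments. The interval of the highest Esr1 peak lay above that of the far-end peak and overlapped that of the first Pgr peak.

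Nr3c1 held 0 peaks, and no peak touched its span of 109 kb on chromosome 18. The nearest peaks lay 696 kb below and 2592 kb above it, and the whole stretch between them, 3396 kb, held 8 protein-coding genes. Chromosome 18 itself held 416 peaks. Of the 3241 protein-coding genes with spans between those of Pgr and Esr1, 47.1% held a summit, so lacking one was common at such lengths. A gene without a peak has no recorded background, so the list sets no upper limit on ac4C in Nr3c1, where enrichment was not detected.

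**Figure D1:**
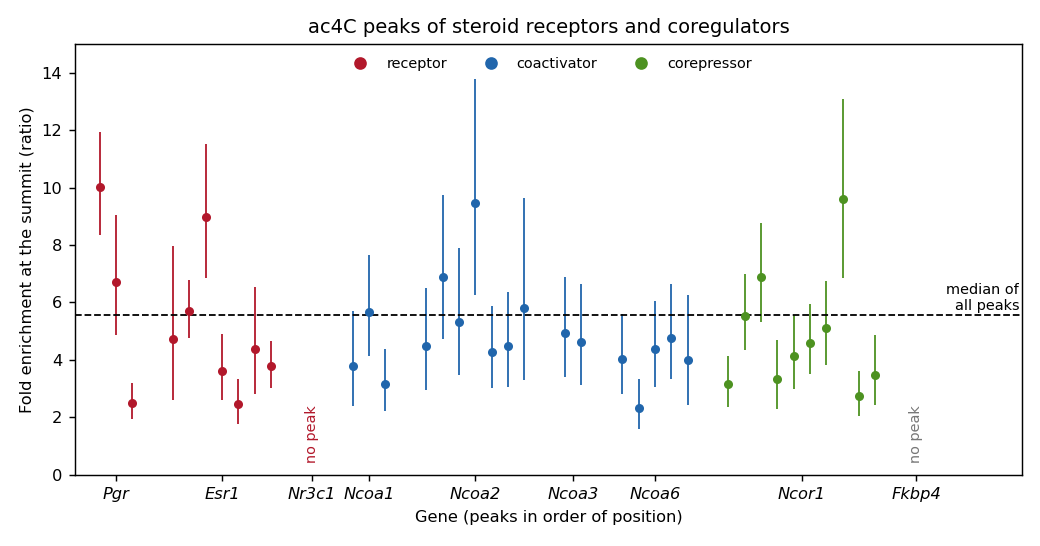
Fold enrichment at the summit (ratio, vertical axis) of each peak of the 9 genes, in order of position within each gene. Points are single peaks, bars are exact 95% Poisson intervals (counting error only), and the dashed line is the median of all 21192 peaks, 5.58. Pgr, Esr1, Ncoa2 and Ncor1 each reach about 9-fold or 10-fold at 1 peak, and 27 of the 37 peaks lie below the line.

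All 4 coactivator genes held peaks, 17 in total. Among the p160 genes, Ncoa2 had the most, with 7, against 3 in Ncoa1 and 2 in Ncoa3. The highest Ncoa2 peak, on chromosome 1 from 13162129 to 13162377, stood at 9.45-fold (95% interval 6.24 to 13.8) on 25 fragments over a background of 1.75. Its interval was wide because few fragments lay behind it. The next, from 13150736 to 13151056, stood at 6.89-fold (4.72 to 9.74), and the other 5 ran from 4.26-fold to 5.81-fold. Of the 7 summits, 6 lay within 15.2% of the span from the lower-coordinate end and 1 lay at 99.3%, with 198 kb without a summit between them. The direction of transcription of Ncoa2 and Ncoa3 was not taken from the tables used.

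Ncoa1 had its highest peak on chromosome 12 from 4274865 to 4275155, at 5.68-fold (95% interval 4.13 to 7.64) on 42 fragments. Its other 2 peaks stood at 3.78-fold (2.41 to 5.69) and 3.16-fold (2.22 to 4.38), and the 3 intervals overlapped. All 3 summits lay late in the gene, at 78.8% to 91.0% of the span from the start. Ncoa3 had peaks on chromosome 2 from 166054737 to 166055507, at 4.93-fold (3.42 to 6.90), and from 166059114 to 166059388, at 4.64-fold (3.14 to 6.63). These 2 peaks did not differ beyond counting error, and their summits lay 4.08 kb apart.

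Ncoa6, a coactivator outside the p160 family, held 5 peaks. They formed 2 groups. On chromosome 2 from 155405820 to 155408568, 3 peaks stood at 4.03-fold (95% interval 2.81 to 5.61), 2.34-fold (1.59 to 3.33) and 4.37-fold (3.07 to 6.06). From 155421001 to 155423050, 2 peaks stood at 4.77-fold (3.33 to 6.64) and 4.00-fold (2.42 to 6.27). The peak at 2.34-fold was the lowest of the 37. The 3 widest Ncoa6 peaks measured 974, 836 and 573 bp and the other 2 measured 282 and 200 bp. None of the 5 peaks reached the median fold enrichment of all peaks, 5.58.

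Ncor1 held 10 peaks on chromosome 11, the most of the 9 genes. Its highest, from 62358934 to 62359160, stood at 9.60-fold (95% interval 6.86 to 13.1) on 38 fragments over a background of 3.06. A pair of peaks from 62329557 to 62330303, with summits 508 bp apart, stood at 5.54-fold (4.34 to 6.98) on 70 fragments and 6.87-fold (5.30 to 8.76) on 63. The other 7 ran from 2.76-fold to 5.13-fold. The 10 peaks were 226 to 425 bp wide, with a median of 261 bp. The summits lay between 52.2% and 98.3% of the span from the start, so no summit lay in the earlier part of the gene. Of the 10 summits, 3, among them the pair, also lay within the span of the neighbouring protein-coding gene Ttc19. The list gave no strand, so those 3 peaks cannot be assigned to one gene. Counting only summits in 1 gene, Ncor1 held 7 peaks, as many as Esr1 and Ncoa2. The highest Ncor1 peak lay outside Ttc19.

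Fkbp4 held 0 peaks, and none touched its span of 8.55 kb on chromosome 6. The nearest peaks lay 19.5 kb below and 207 kb above it. Of the 1838 protein-coding genes with a span within 20% of that of Fkbp4, 30.0% held a peak, so a gene of this length without one was the common case.

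**Figure D2:**
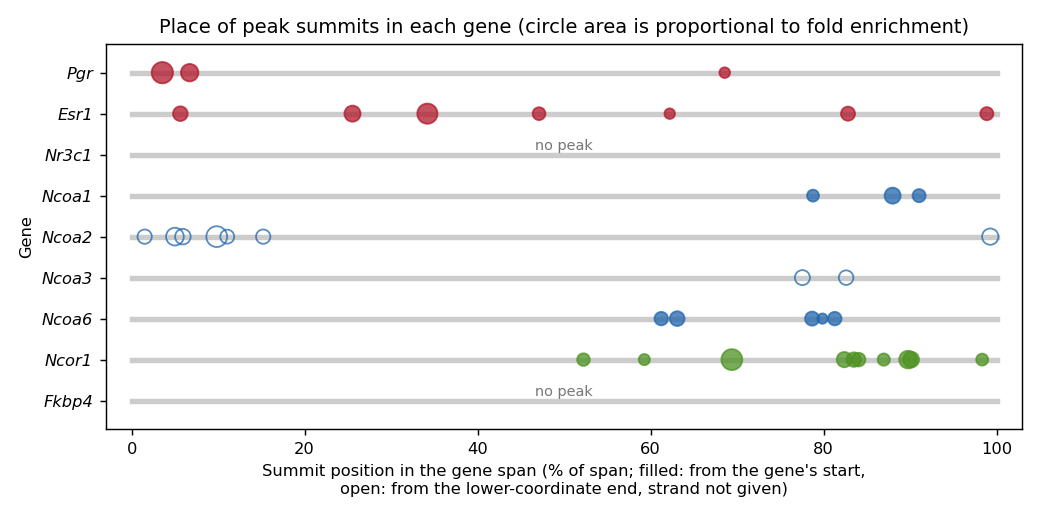
Position of each summit as a percentage of the gene span (horizontal axis), 1 line per gene, with the area of a circle proportional to fold enrichment. Filled circles count from the start of the gene and open circles (Ncoa2 and Ncoa3) from the lower-coordinate end. Pgr has 2 of 3 summits near its start, Esr1 has summits along its whole length, and all Ncoa1, Ncoa6 and Ncor1 summits lie beyond 50% of the span.

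Across all 21900 protein-coding genes, 30.7% held a summit, against 7 of the 9 genes here. Long genes held peaks more often. Among the 3241 genes with spans between those of Pgr and Esr1 (69.7 to 394 kb), 47.1% held a summit, against 7 of the 8 genes of this set in that range. Transcript abundance was not matched, since no expression values were used. By number of peaks Ncor1 exceeded 95.5% of the 6717 protein-coding genes with a peak, and Esr1 and Ncoa2 89.3%. The Ncor1 rank counts its peaks shared with Ttc19. By the fold enrichment of the highest peak the order was Pgr, Ncor1, Ncoa2, Esr1, Ncoa1, Ncoa3 and Ncoa6. Neighbours in that order had overlapping intervals throughout. Of the 21 pairs of genes, the intervals of 5 lay apart, namely Pgr against Ncoa1, Ncoa3 and Ncoa6, and Ncoa6 against Esr1 and Ncor1. These intervals leave out the counting error of the background, so a gap between them is no test of a difference. Pgr exceeded 81.0% of genes with a peak in this measure and Ncoa6 20.4%. A gene with more peaks has more chances of a high one, and these ranks are not corrected for that.

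Receptors, coactivators and the corepressor were then set side by side. Peak number per length was lowest in the receptors, at 0.175 peaks per 10 kb of span over 3 genes, against 0.270 in the 4 coactivators and 0.705 in Ncor1. The Ncor1 value counts its peaks shared with Ttc19. All protein-coding genes together had 0.189, and those with a peak 0.460, so the receptor value lay near that of all genes. Genes also differed within a class. Pgr had 0.430 and Esr1 0.178 peaks per 10 kb, while Ncoa6 had 0.601 and Ncoa1 0.131. Median fold enrichment was 4.55 over the 10 receptor peaks, 4.48 over the 17 coactivator peaks and 4.36 over the 10 Ncor1 peaks. Each lay below the 5.58 of all peaks. The order of receptors and coactivators turned under alternatives, to 4.38 against 4.56 without peaks of the smallest width and to 4.38 against 4.48 without Pgr. With a −log10 q of at least 10 it was 6.72 against 4.93, though that filter favours peaks of high fold enrichment or many fragments. Single peaks ran from 2.46-fold to 10.02-fold in receptors, from 2.34-fold to 9.45-fold in coactivators and from 2.76-fold to 9.60-fold in Ncor1, so the classes overlapped over nearly their whole ranges.

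Depth differed between the classes by median, though the receptor peaks came from 2 genes only. The median number of fragments at a summit was 50 for receptor peaks, 29 for coactivator peaks and 49 for Ncor1, against 22 over all peaks. Without Pgr the receptor median was 39 fragments, while medians of single coactivator genes ran from 25 in Ncoa2 to 34 in Ncoa1. The median background was 10.7, 5.69 and 8.97 fragments, against 2.63 over all peaks. No coactivator summit held more than 42 fragments, while 5 of the 10 receptor summits held 59 or more. Width gave another order. Median widths were 332 bp for receptors, 317 bp for coactivators and 261 bp for Ncor1, against 315.5 bp over all peaks. Without Pgr the receptor median was 298 bp, below that of the coactivators. Peaks wider than 631 bp, which is 2 times the median, numbered 2 of 10 in receptors, 4 of 17 in coactivators and 0 of 10 in Ncor1, against 14.5% of all peaks.

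Fold enrichment in the list fell as background rose, from a median of 6.48 among peaks with a background below 2 fragments to 3.35 among those with 16 to 32. Each peak was therefore also ranked among the other peaks with a background within 20% of its own. By this measure the first Pgr peak stood above 99.1% of 1408 peaks, whose median was 3.85-fold. The deepest Esr1 peak stood above 94.2% of 448, although its 5.70-fold was close to the median of the whole list. The highest Esr1 peak stood above 92.6% of 2537, the highest Ncor1 peak above 88.7% of 3365 and the highest Ncoa2 peak above 81.2% of 2330. The highest peaks of Ncoa1, Ncoa3 and Ncoa6 stood above 69.3%, 50.6% and 49.4%. Over all peaks of a class, 5 of 10 receptor, 4 of 17 coactivator and 5 of 10 Ncor1 peaks stood above the median of peaks of like background. The Pgr and Esr1 peaks near a start thus ranked higher at their own background than in the list as a whole. This was not particular to them, since a high background raises this rank. The far-end Esr1 peak went from 14.7% to 63.2% and the 5.54-fold Ncor1 peak from 49.0% to 84.7%. The Esr1 peak with a background of 1.75 went down, from 32.7% to 15.6%.

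**Figure D3:**
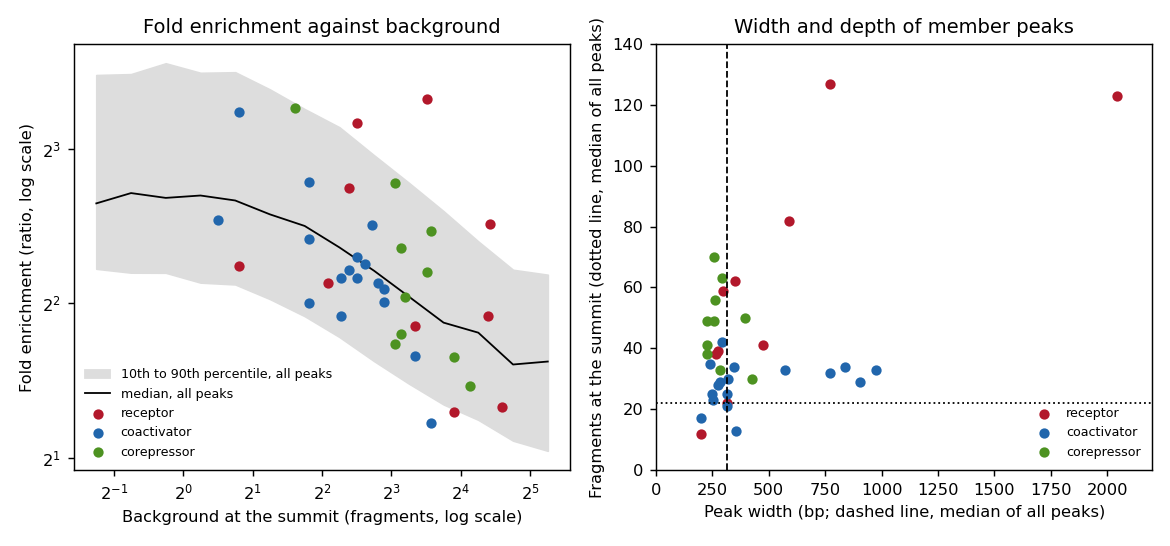
Left, fold enrichment (ratio, log scale) against background at the summit (fragments, log scale), with the median and the 10th to 90th percentiles of all peaks as a line and a band. Right, fragments at the summit against peak width (bp), with medians of all peaks as lines. Points are the 37 peaks of the set, coloured by class. The first Pgr peak (2045 bp, 123 fragments) and the deepest Esr1 peak (770 bp, 127 fragments) stand above the band on the left, with the highest Esr1 peak (8.97-fold), and have the most fragments on the right.

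Receptor summits lay along the whole span, and those of the coregulators with a known strand lay in its later part. Of the 10 receptor summits, 3 lay in the first 20% of the span from the start and 2 in the last 20%. The 8 summits of Ncoa1 and Ncoa6 lay between 61.2% and 91.0%, with 3 of them in the last 20%. Ncor1 had 7 of 10 in the last 20%. Over 16163 summits in 5351 protein-coding genes with a known strand, 16.02% lay in the first 20% and 39.0% in the last. In genes at least as long as Pgr, 45.4% lay in the last 20%. Within 2.5 kb after a listed start lay 2 of the 10 receptor summits, the first of Pgr and the deepest of Esr1, and 0 of the 18 summits of Ncoa1, Ncoa6 and Ncor1, against 17.9% of all those summits and 9.94% of those in genes at least as long as Pgr. The only listed start of Ncoa6, at 155440783 on the minus strand, lay inside its span. The percentages of span were counted from the end of that span, at 155473911. Summits of 1 gene share their transcript and are not independent, and exons, introns and untranslated regions were not told apart.

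Other genes of steroid receptor signalling were examined as 4 lists, and 26 of the 32 genes held a peak, against 30.7% of all protein-coding genes. With summits in 1 gene only, 22 held a peak, and 6105 protein-coding genes did in place of 6717. The median fold enrichment at the highest peak of those 26 genes was 6.37, against 8.97 over the 7 genes above and 6.61 over all genes with a peak.

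All 5 other receptors examined held a peak. The only peak of Gper1, of 8 fragments, lies at a place that also lies in 3110082I17Rik, so it cannot be assigned to one gene. The highest was Pgrmc2, a membrane-associated progesterone receptor component, at 11.99-fold (95% interval 7.85 to 17.6) on 24 fragments. Nr3c2, the mineralocorticoid receptor, stood at 6.96-fold (3.56 to 12.6) on 9 fragments, and Pgrmc1, a relative of Pgrmc2, at 6.25-fold (4.65 to 8.22) on 49. Esr2, the estrogen receptor beta, had 1 peak of 6 fragments at 5.32-fold (2.43 to 10.7), at a place that also lies in Gm7862. The interval of Pgrmc2 overlapped those of Pgr and Esr1, and that of Pgrmc1 lay below that of Pgr and overlapped that of Esr1. Esr2 and Nr3c2 rested on fewer fragments than any peak of Pgr or Esr1.

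Of 12 other coactivators and chromatin partners, 9 held a peak, and Ncoa4, Ncoa7 and Kat2b held none. The highest were Arid1a, a subunit of the SWI/SNF remodelling complex, at 26.1-fold (95% interval 20.7 to 32.4) with 16 peaks, and Smarca4, the ATPase of that complex, at 16.5-fold (13.0 to 20.8) with 15. Crebbp, a histone acetyltransferase recruited by p160 proteins, stood at 10.4-fold (8.12 to 13.0) with 8 peaks. The interval of Arid1a lay above those of all 7 members with a peak.

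All 7 other corepressor genes examined held a peak, though the only peak of Tbl1xr1, of 11 fragments, also lies in Gm5842. The highest was Sin3a, a scaffold of a histone deacetylase complex, at 14.9-fold (95% interval 10.7 to 20.1) on 40 fragments over a background of 1.76, with 3 peaks. Its interval overlapped that of the highest Ncor1 peak. Phb2, a repressor of estrogen receptor activity that also works in mitochondria, stood at 7.23-fold (5.54 to 9.27) with 6 peaks. Gps2, a subunit of the Ncor1 complex, stood at 5.93-fold (4.12 to 8.30) with 2.

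Of 8 receptor chaperone genes, 5 held a peak, and Hsp90aa1, Stip1 and Dnajb1 held none. The only peak of Stub1 also lies in Jmjd8. The highest were Ptges3, the p23 co-chaperone, at 6.14-fold (95% interval 4.26 to 8.59), Fkbp5, an immunophilin related to Fkbp4, at 5.79-fold (3.64 to 8.79), and Hspa8, a constitutive Hsp70, at 4.22-fold (3.53 to 5.01). The Hspa8 peak rested on 130 fragments over a background of 30.03, and that of Hsp90ab1, at 3.89-fold (3.27 to 4.58), on 139 over 35.02. Both stood above the median of peaks in the same range of background, which was 3.04-fold for Hspa8 and 3.08-fold for Hsp90ab1.

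**Figure D4:**
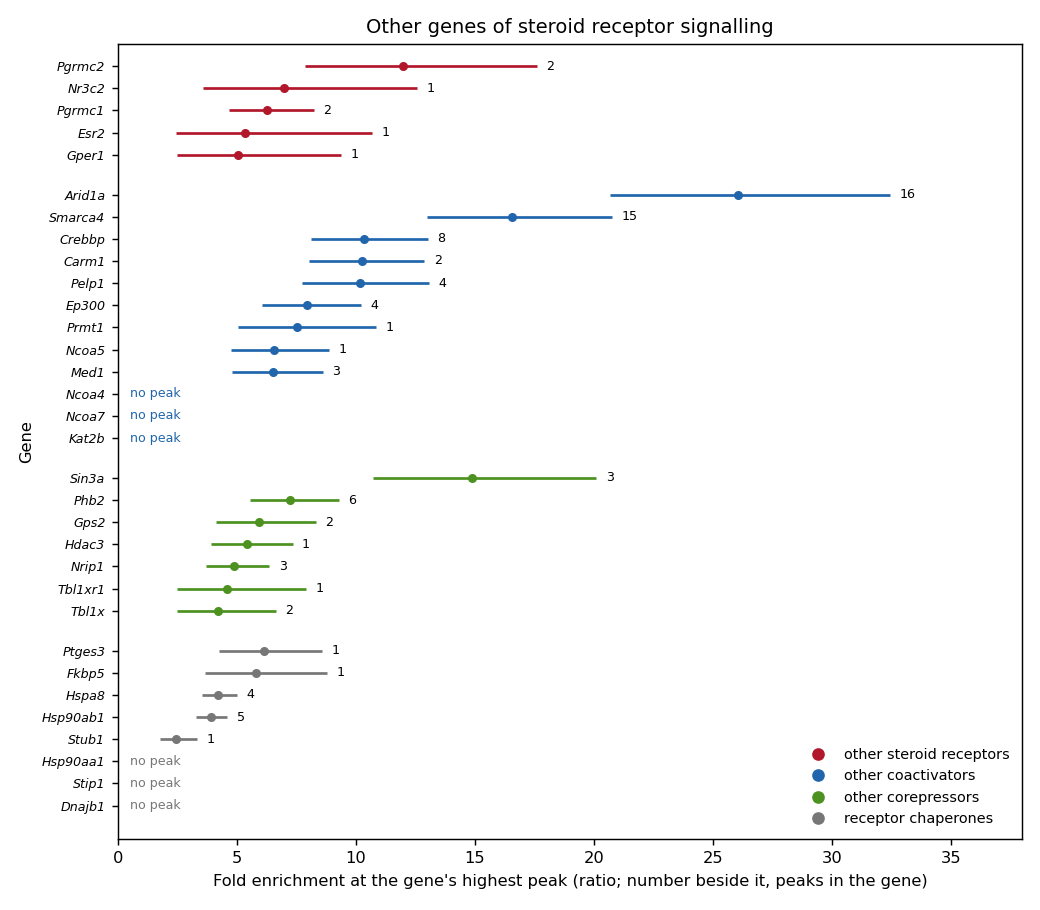
Fold enrichment at the highest peak (ratio, horizontal axis) of the 32 other genes in 4 lists, with exact 95% Poisson intervals as bars and the number of peaks in the gene beside each bar. Arid1a (16 peaks) and Smarca4 (15 peaks) stand farthest right, and the chaperones lie between 2.45-fold and 6.14-fold.

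The labelled tissue was checked against markers of uterine cell types. Peaks were found in 5 of 6 epithelial, 5 of 5 stromal, 4 of 4 smooth muscle, 3 of 3 endothelial and 2 of 3 leukocyte markers, with 0 in Epcam and Ptprc. That was 19 of 21 markers, against 30.7% of all protein-coding genes. All peaks of the stromal marker Hoxa11 and of the smooth muscle marker Tagln also lie in another gene, so they cannot be assigned to one gene. A peak needs both RNA and enrichment, so these counts give no share of any cell type. Their part in the values of the receptors was not tested.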

How the data were processed

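RNA of the uterus was measured by acRIP-seq in 1 immunoprecipitation and 1 input library, grouped by their titles. HISAT2 2.2.1, MACS3 3.0.0a7 and build mm10 (GRCm38) are named in the submitters' processing notes, without settings. The single peak list held, per peak, a fold enrichment (a ratio), −log10 p-values and −log10 q-values, and a score, all as deposited by the authors. In 21191 of 21192 peaks the score was the −log10 q times 10, cut to a whole number. Other deposited columns gave peak and summit positions. Whether the input library served as the background was not given in the sources used here.

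Fragments at each summit were recovered as the whole number for which the fold enrichment (with a pseudocount of 1 on both sides) and the Poisson p-value both matched, in 21192 of 21192 peaks. The step was tested on simulated data. Genes were spans of the RefSeq GRCm38.p6 table. A peak spread over several exons may be listed as several peaks. PCR copies were not told from separate molecules. With 1 library per group, no test was run.

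The 9 genes and the lists were chosen with earlier results of these data known. All 9 are named, and of each list the 3 genes highest by fold enrichment and those without a peak. Esr2, Gper1, Tbl1xr1, Stub1, Hsp90ab1, Hoxa11 and Tagln were named after their values were seen. A further 2 listed genes are not reported here and enter no list count. Alternatives filtered peaks by q, fold enrichment, width or overlap. Python 3.11.15, pandas 2.3.3 and scipy 1.17.1 were used.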

Additional observations from a re-analysis of the deposited data

How the results depend on the processing

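The number of genes with a peak, 7 of 9, was the same with a −log10 q of at least 10, with any overlap of 1 bp in place of the summit, with summits in 1 gene only, and without peaks of the smallest width. With fold enrichment at or above the median it was 5, since Ncoa3 and Ncoa6 held no such peak. With a −log10 q of at least 10, 5 receptor, 7 coactivator and 6 Ncor1 peaks were left, the median receptor width was 591 bp, and 3851 protein-coding genes held a peak. With fold enrichment at or above the median the numbers were 4, 4 and 2 peaks, 623 bp and 4460 genes, and 17 of the listed pathway genes held a peak in place of 26. Both filters lower these counts by construction. The median over genes of the highest fold enrichment, 8.97, became 4.38 with the median over each gene's peaks in its place. Per 10 kb of span, receptors held 0.175 and coactivators 0.270 peaks. The count per kb of exon was not run. Of 61 such values under alternatives, 47 stayed within their limits, which were a factor of 1.5 for counts and widths and the counting interval of the peak nearest the value for fold enrichment. The 61 include the densities per 10 kb, set against plain counts in other units, which no such factor can judge. They also include counts lowered by construction and the values without Pgr, so the share of 47 does not measure stability. That interval is wide for the receptor median, which moved from 4.55 to 6.72 with the q filter and to 7.84 with the fold filter. The move with the fold filter was over 1.5 times. The coactivator median moved from 4.48 to 4.93 and 6.35. The fold filter keeps no peak below the median of all peaks, so it raises these medians by construction. The q filter favours peaks of high fold enrichment or many fragments, so a rise with it shows little. Leaving out Pgr, an alternative chosen after seeing the data, gave a median receptor fold enrichment of 4.38 and a width of 298 bp. Counting error was largest for peaks of few fragments, as the 4.73-fold Esr1 peak with 12 fragments had an interval from 2.62 to 7.98. A low fold enrichment did not by itself mean few fragments. The 2.51-fold Pgr peak had 62 fragments and an interval from 1.94 to 3.21.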

Other observations

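Nuclear receptors that do not bind steroid hormones were looked at as a family, a list drawn up by symbol after the values above were seen. Of 41 such genes 21 held a peak (51.2%), against 30.7% of all protein-coding genes and 47.1% of those with spans between those of Pgr and Esr1. The 41 genes were not chosen by span, so neither share is matched to them in length. The median fold enrichment at the highest peak was 7.998, against 6.61 over all genes with a peak. The highest was Nr1d1, a heme-binding repressor of the circadian clock, at 18.2-fold (95% interval 13.7 to 23.8) on 52 fragments, followed by Rxra, the retinoid X receptor alpha that pairs with many other receptors, at 16.5-fold (11.3 to 23.4), and Nr4a3, an orphan receptor, at 15.995-fold (11.3 to 21.98). The highest peaks of 9 of these genes stood above that of Pgr by value. The intervals of Nr1d1 and of Nr2f2, at 15.8-fold (12.9 to 19.3) on 98 fragments, lay above that of Pgr, and those of Rxra and Nr4a3 overlapped it.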
